A study of Danio rerio with 10 samples.

Results

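The genes described here were those present in wild-type zebrafish embryos and at least 4-fold lower in uts2r3 homozygous mutant embryos. They were chosen by their measured level. A gene was taken when its wild-type mean was at least 1 CPM (counts per 1000000 counts of its library), its mutant mean was at most 25% of that, every mutant library lay below every wild-type library, and its mean over all libraries was under 100 CPM. A block of 198 rows with adjacent identifiers was left out. Of 36351 genes in the deposited table, 18065 had a level and an identifier that allowed them to meet the rule, and 109 met it, or 0.603%. No further gene was lost to the upper limit of 100 CPM, and 5 genes that met the other criteria lay in the block left out. Total RNA of whole embryos was sequenced at 28 hours post-fertilization, in 6 libraries of embryos homozygous for a uts2r3 mutation and 4 libraries of wild-type embryos. The extraction note gives 5 controls and 5 mutants for RNA sequencing, whereas the labels of the individual samples, followed here, give 6 mutant and 4 wild-type libraries. The labels did not give the allele, the strain, whether the wild-type embryos were siblings, or how many embryos went into a library. They also did not say whether libraries came from separate clutches, so the spread between libraries may be technical.

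The receptor encoded by uts2r3 belongs to the urotensin II receptor family, G-protein coupled receptors for small cyclic peptides. In zebrafish its ligands include Urp1 and Urp2, peptides made by neurons that contact the cerebrospinal fluid, and their signalling acts with the Reissner fibre in straightening the body axis and keeping the spine straight. The study's title concerns mechanical deficits that come before spinal curvature in an idiopathic scoliosis model, and the comparison of mutant with wild type addresses which transcripts differ at an early age.

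The deposited table paired no gene with a symbol, and none of its identifiers matched the name tables used here. The identity of the 109 genes, the level of uts2r3 itself and markers of cell types were therefore not analysed here, and no row could be used to check the genotype labels. Genes are called by their rank among the 109 in wild-type CPM and by their length in the deposited table. Total counts were 31247787 to 42423874 in the mutant libraries and 62001742 to 73442336 in the wild-type libraries, so a low count was less finely resolved in mutants. The column names of each genotype form a series of their own, and separate handling of the genotypes cannot be told apart from genotype. In whole embryos, fewer cells of a type and less RNA per cell cannot be told apart either.

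The 109 genes together held 51.2 to 101 CPM in the mutant libraries and 470 to 544 CPM in the wild-type libraries, with means of 68.5 ± 18.2 CPM (SD, n = 6) and 502 ± 32.1 CPM (SD, n = 4). Mutant replicate 6 held the most of the mutant libraries, 101 CPM, and mutant replicate 5 the least, 51.2 CPM. Much of this spread came from few genes. Without the 10 genes with the highest wild-type level, the other genes summed to 29.1 to 39.2 CPM in mutant libraries and to 262 to 270.3 CPM in wild-type libraries.

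Most of the genes were present at a low level. Their median was 0.298 CPM in mutants and 2.14 CPM in wild type, with 88 of the 109 under 5 CPM and 51 under 2 CPM in wild type, and 9 at 10 CPM or more. The ratio of the wild-type mean to the mutant mean had a median of 7.16. It lay between 4 and 8 for 57 genes, between 8 and 16 for 27, between 16 and 32 for 12 and at 32 or more for 13. The rule asked for groups without overlap and means at least 4-fold apart, so a gap between the groups was set in advance. In 77 genes the lowest wild-type library was at least 2 times the highest mutant library. In 19 genes that gap was under 1.5 times.

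**Figure D1:**
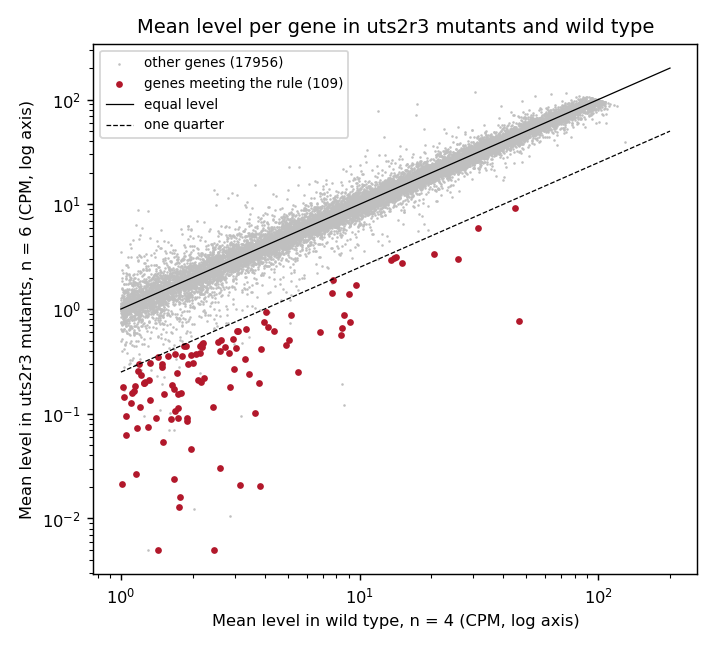
Mean CPM of each gene in 6 uts2r3 mutant libraries (vertical, log axis) against its mean in 4 wild-type libraries (horizontal, log axis), for the 109 genes that met the rule and 17956 others that could have; genes under 0.005 CPM in mutants are drawn at that level. The 109 genes lie below the dashed line at 25% of the wild-type mean because the rule put them there, and most of them are at 1 to 5 CPM in wild type.

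**Figure D2:**
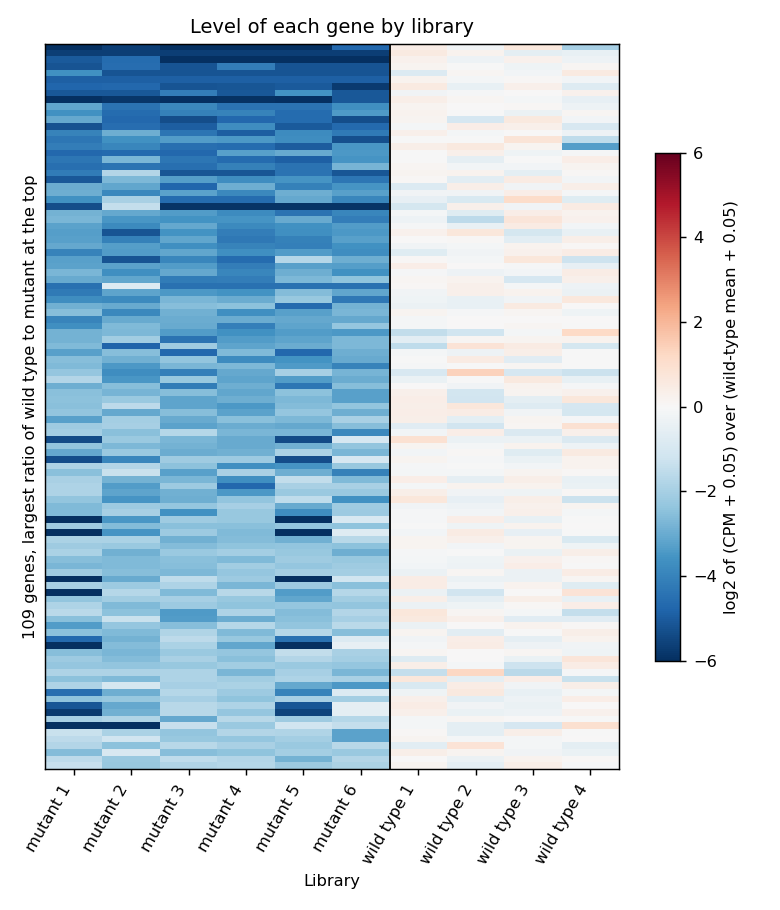
Level of the 109 genes in each library, as the log2 of its CPM plus 0.05 over the wild-type mean plus 0.05, with the mutant libraries to the left of the wild-type libraries and the largest ratio at the top. Some genes near the bottom are darkest in mutant replicates 1 and 5 and pale in mutant replicate 6.

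LL0000024918, 8428 bases long, had the highest wild-type CPM of the 109. It was at 0.621, 0.759, 0.566, 0.714, 0.603 and 1.31 CPM in mutant replicates 1 to 6, and at 59.8, 51.0, 42.6 and 33.5 CPM in wild-type replicates 1 to 4. Every mutant library held some reads of this gene, between 19 and 41 counts, and the lowest wild-type library was 25.5 times the highest mutant library. The means were 0.762 ± 0.279 CPM in mutants (SD, n = 6) and 46.7 ± 11.3 CPM in wild type (SD, n = 4), and its fitted log2 change was -5.96 (SE 0.20).

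The gene ranked next, 1751 bases long, differed in another way. It lay between 8.69 and 10.4 CPM in the mutants with a median of 9.13 CPM, whereas the wild-type libraries held 57.3, 41.5, 19.2 and 61.2 CPM. The mutant libraries were nearly level, with a mean of 9.30 ± 0.625 CPM (SD, n = 6), and the wild-type libraries were spread, with a mean of 44.8 ± 19.1 CPM (SD, n = 4). Per kilobase of length it had the highest level of the 109, at 5.31 CPM per kilobase in mutants and 25.6 CPM per kilobase in wild type.

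The sixth gene, 2822 bases long, and the ninth, 7424 bases long, were likewise even among the mutants. The sixth was at 2.34 to 3.40 CPM in the mutants with a median of 2.57 CPM, and at 13.9, 12.8, 17.8 and 16.03 CPM in wild type. The ninth was at 2.46 to 3.42 CPM in the mutants with a median of 3.01 CPM, and at 16.7, 8.89, 10.9 and 17.6 CPM in wild type. In both genes all mutant libraries stayed within 1.5 times of each other and well below the lowest wild-type library.

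At the other end, some of the genes were at or near the limit of detection in mutants. A total of 10 genes had under 10 counts summed over the 6 mutant libraries, 3 had at most 3 counts, and 2 had no count. Of the 109, 78 had at least 1 count in every mutant library. Intervals and floors given for counts here cover counting error only.

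LL0000015507, 1607 bases long and ranked 28th in wild type, had the largest ratio when genes without a mutant count are set to 3 counts over the mutant libraries. It had 4 counts over all mutant libraries, with 1 in replicate 2, 3 in replicate 6 and none in replicates 1, 3, 4 and 5. Its wild-type libraries were at 5.06, 3.31, 6.01 and 0.912 CPM, with 985 counts in all. The wild-type mean was 188 times the mutant mean, and wild-type replicate 4 was far below the other wild-type libraries while still 9.50 times the highest mutant library.

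The 2 genes without a mutant count were 2925 and 553 bases long. The longer of them was at 3.58, 2.83, 1.61 and 1.80 CPM in the wild-type libraries, which summed to 644 counts. Its wild-type mean was 184 times a floor of 0.0134 CPM, the level that 3 counts in the 6 mutant libraries together would give. The 95% exact binomial interval of its depth-corrected mutant level was 0 to 0.68% of wild type. The shorter was at 1.64, 1.30, 1.53 and 1.25 CPM in wild type, with 378 counts. Its wild-type mean was 107 times the same floor, and its interval was 0 to 1.16% of wild type. The gene with 3 mutant counts, 7183 bases long, had 466 wild-type counts, and its depth-corrected mutant level was 0.762% of wild type (95% exact binomial interval 0.156 to 2.24%).

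LL0000024918, with 167 mutant counts, was also among the 10 largest ratios. The remaining genes among them had few mutant counts. The gene 3035 bases long had 5 mutant counts against 826 in wild type, the one of 2142 bases had 4 against 479, and the one of 1831 bases had 5 against 447. The gene of 6104 bases had 7 mutant counts against 678 in wild type, and that of 2996 bases had 5 against 267. In these 5 genes the few mutant counts were not in the same libraries. The gene of 2142 bases had all 4 in mutant replicate 1, whereas the gene of 6104 bases had 1 or 2 in each of replicates 1 to 5.

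The smallest decreases show where the rule stopped. The 3 genes just inside the limit had mutant means of 24.3%, 24.7% and 24.98% of wild type, and the 3 just outside it, among genes whose groups did not overlap, had 25.02%, 25.2% and 25.8%. A further 31 genes had a mutant mean at or under 25% of wild type but overlapping groups, and were not taken.

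All 109 genes passed the filter on low counts, through their wild-type libraries. In the edgeR quasi-likelihood fit over 24608 genes (Benjamini-Hochberg adjustment), 102 of the 109 were lower in mutants at an adjusted p under 0.05, where 5.3% of all genes tested were. Every one of the 109 has groups that do not overlap, by the rule, where 5.12% of the genes tested were lower with no overlap. Since the same contrast chose the genes, these counts describe them and support nothing. The median fitted log2 change was -2.84 over the 109 and 0.00 over all genes tested, with a range over the 109 of -9.91 to -1.98 and a median standard error of 0.37. The values of -9.91 and -9.13 are those of the 2 genes with no mutant count, whose change has no measured size. The lowest value with a mutant count was -7.54.

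The 7 genes without a call all differed widely among the mutant libraries, and 5 of them shared one order of mutant levels, in which replicate 6 was highest, followed by replicates 3, 4 and 2, with replicates 1 and 5 lowest. This order was noticed after the values were seen, and no test was made of it. With the levels of replicates 1 and 5 at most 10% of that of replicate 6, and a mutant mean of at least 0.1 CPM, it was found in 7 of the 109 genes and in 4 others among all 26476 genes with that mutant mean. The order alone, with no limit on replicates 1 and 5, was found in 72 genes, 8 of them among the 109.

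The gene of rank 3 in wild type, 5573 bases long, had the highest wild-type level of these. It had 0.0239, 3.82, 11.03, 6.96, 0 and 13.8 CPM in mutant replicates 1 to 6, and 42.8, 24.3, 24.9 and 33.7 CPM in wild-type replicates 1 to 4. Mutant replicate 1 thus held 1 count and replicate 5 none, while replicate 3 held 468. The wild-type libraries all lay above every mutant library but by less, the lowest being 1.76 times mutant replicate 6. Its fitted log2 change was -2.41 with a standard error of 0.90.

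Others followed the same order from different levels. The seventh gene, 5131 bases long, was at 0.215, 1.86, 4.46, 2.803, 0.254 and 9.44 CPM in mutant replicates 1 to 6 and at 17.8, 10.7, 11.5 and 16.9 CPM in wild type. The tenth, 4399 bases long, was at 0.0955, 0.785, 2.12, 1.504, 0.0635 and 5.60 CPM in mutants and at 8.52, 13.7, 6.93 and 9.53 CPM in wild type. In both, mutant replicate 6 reached over 50% of the wild-type mean. Mutant replicates 1 and 5 held 9 and 8 counts of the seventh gene, and 4 and 2 counts of the tenth. The longest of the 109 genes, ranked eighth with 12665 bases, kept the order with less contrast, at 0.549, 1.78, 4.22, 3.01, 0.825 and 7.90 CPM in mutants and 11.6, 21.2, 10.3 and 12.6 CPM in wild type.

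Relative to its own wild-type mean, each of the 7 genes was at 0 to 1.51% in mutant replicate 1 and 0 to 1.79% in replicate 5. The same genes were at 4.09 to 13.1% in replicate 2, 15.6 to 25.7% in replicate 4, 20.9 to 35.1% in replicate 3 and 43.8 to 68.2% in replicate 6. Total counts were 41903160 in replicate 1, 38202963 in replicate 2, 42423874 in replicate 3, 39239750 in replicate 4, 31510868 in replicate 5 and 31247787 in replicate 6. The 4 genes outside the rule, 3486, 4852, 5685 and 1808 bases long, had no count in mutant replicates 1 and 5. In replicate 6 they reached 120%, 110%, 73.2% and 208% of their wild-type means. What distinguishes these mutant libraries is not in the labels.

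**Figure D3:**
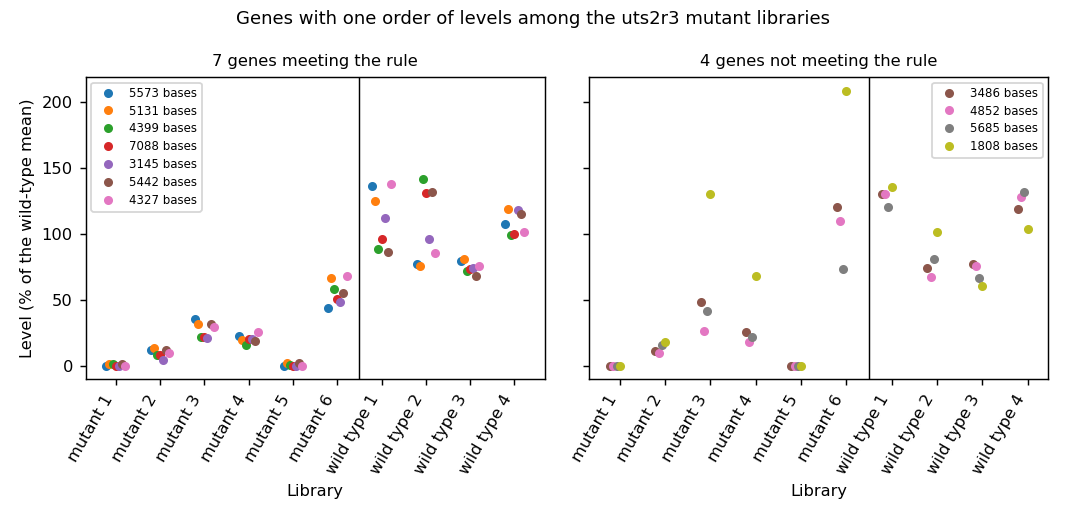
Level of the genes with one order among the mutant libraries, as a percentage of each gene's wild-type mean (vertical), in mutant replicates 1 to 6 and wild-type replicates 1 to 4, for 7 genes that met the rule (left) and 4 that did not (right), named by length. All 11 are near 0 in mutant replicates 1 and 5 and, among the mutant libraries, highest in replicate 6; in the wild-type libraries they are spread around 100%.

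A looser grouping gave more genes. Of the 26476 genes with a mutant mean of at least 0.1 CPM, 29 had replicates 1 and 5 lowest and at most 10% of the highest mutant library. Among these 29 were 9 of the 109: the 7 above, the 36th in wild type (1641 bases) and the 58th (1429 bases). The 36th was at 0.471, 0.778, 0.306 and 2.14 CPM in mutant replicates 2, 3, 4 and 6, with no count in replicates 1 and 5, and at 2.86, 4.24, 2.50 and 2.67 CPM in wild type. The 58th was at 0.393, 0.259, 0.204 and 0.960 CPM in the same 4 mutant libraries, also with no count in the other two, and at 3.82, 1.54, 1.59 and 1.09 CPM in wild type.

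A second pattern set mutant replicates 3 and 5 apart. The fourth gene, 1517 bases long, was at 3.36, 4.32, 1.37, 3.34, 1.24 and 4.35 CPM in mutant replicates 1 to 6 and at 26.3, 22.4, 29.8 and 24.5 CPM in wild type. The fifth, 2670 bases long, was at 3.25, 5.05, 1.58, 4.20, 1.52 and 4.51 CPM in mutants and at 19.5, 18.2, 25.2 and 18.9 CPM in wild type. The thirteenth, 620 bases long, was at 0.859, 1.44, 0.283, 1.35, 0.286 and 1.09 CPM in mutants and at 7.94, 7.02, 11.1 and 8.46 CPM in wild type. All 3 had mutant replicates 3 and 5 at under 50% of each of the others, and all 3 were highest in wild-type replicate 3. With that limit and a mutant mean of at least 0.1 CPM, 43 genes of the table qualified, these 3 among them.

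Other genes were present in some mutant libraries and at or near 0 in others, and 2 of them were left in a single one. The 40th gene, 637 bases long, was at 1.05 CPM in mutant replicate 2 and at 0 to 0.0239 CPM in the other mutant libraries, against 1.34, 3.54, 2.48 and 4.07 CPM in wild type. The 105th, 6001 bases long, was at 0.576 CPM in mutant replicate 2 with no count in the other mutant libraries, against 1.11, 1.30, 0.952 and 0.844 CPM in wild type. The 25th, 822 bases long, had no count in mutant replicates 1 and 2 and 0.841 to 1.75 CPM in replicates 3 to 6, against 3.71, 2.69, 2.03 and 7.84 CPM in wild type. Counting error alone gives an index of dispersion near 1 over the mutant libraries, where the index is the chi-square of the counts against library size per degree of freedom. The median index was 2.18 over the 109 genes, leaving out the 2 with no mutant count, for which it is not defined. It was over 10 in 19 of the 109 (17.4%), led by the gene of rank 3, at 198. Over the 17956 others that could have met the rule the median was 4.78, and 25.8% were over 10. Depth is closer, though not matched, among genes that could have met the rule and had 0.1 to 1 CPM in mutants. There the median was 2.16 for 76 of the 109 and 2.30 for 441 others. The index was over 10 in 13.2% and 7.26%. The median mutant level per kilobase was 0.155 CPM for the 76 genes and 0.289 CPM for the 441. The index depends on counts per gene, which were not compared between the 76 and the 441, so equal depth is not shown. These others too had a wild-type mean of at least 1 CPM, and so were lower in mutants.

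The wild-type libraries also differed among themselves at these genes. The median ratio of the highest to the lowest wild-type library was 1.95 over the 109 genes and 1.24 over the 17956 others that could have met the rule. Among genes at 1 to 5 CPM in wild type the medians were 1.98 for 88 of the 109 and 1.41 for 5308 others. A wild-type range of over 3 times was found in 21.6% of these 88 genes and in 3.99% of the 5308 others. The rule uses the wild-type mean and the lowest wild-type library, so this spread is not independent of the choice of genes, and the part of counting error in it was not tested.

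**Figure D4:**
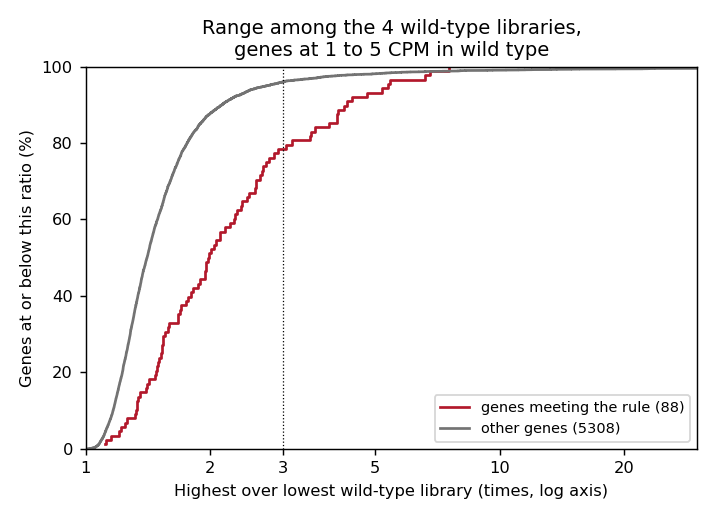
Cumulative share of genes (vertical, %) by the ratio of their highest to their lowest wild-type library (horizontal, log axis), for genes at 1 to 5 CPM in wild type: 88 that met the rule and 5308 that did not. The curve of the 88 genes lies to the right, and 21.6% of them are beyond the dotted line at 3 times, against 3.99% of the others.

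The 23 genes with a wild-type range of over 3 times among the 109 did not share one low library. Their lowest library was wild-type replicate 4 in 10 of them, replicate 2 in 6, replicate 3 in 4 and replicate 1 in 3. The widest was the 19th gene, 3379 bases long, at 0.127 to 0.448 CPM in the mutants and at 6.92, 8.40, 6.18 and 0.504 CPM in wild type. Here wild-type replicate 4 was near the mutant level and the other wild-type libraries were over 10 times it. The 21st, 1288 bases long, ran the other way, at 0.357 to 0.733 CPM in mutants and 1.76, 2.16, 4.67 and 11.6 CPM in wild type. The 52nd, 2296 bases long, and the 78th, 2857 bases long, were highest in wild-type replicate 2, at 5.18 and 4.34 CPM. In the 78th all 3 remaining wild-type libraries were under 1 CPM, at 0.640 to 0.806 CPM.

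The genes were shorter than the others at the median. The median length was 2546 bases over the 109 (285 to 12665 bases) and 3496 bases over the 17956 others, and 13.8% and 5.55% were shorter than 1000 bases. Low genes tend to be short in this table. Among genes at 1 to 5 CPM in wild type the median was 2216 bases for 88 of the 109 and 2915.5 bases for the 5308 others. Per kilobase of length, the median level of the 109 was 0.138 CPM in mutants and 0.941 CPM in wild type. The shortest gene, 285 bases long, was at 0.0317 to 0.314 CPM in mutants, with a median of 0.0712 CPM, and at 2.37, 1.67, 2.40 and 3.25 CPM in wild type.

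The genes were not spread evenly along the numbers of their identifiers. No label or header says how the identifiers were assigned, and whether their order follows position in the genome is not known here. Between 35001 and 40000, 31 of 1375 genes that could meet the rule did so, or 2.25%, and between 25001 and 30000 it was 28 of 2465, or 1.14%. Between 20001 and 25000 it was 2 of 3274, or 0.0611%, and between 10001 and 15000 it was 5 of 2756, or 0.181%. Over all identifiers the share was 0.603%.

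**Figure D5:**
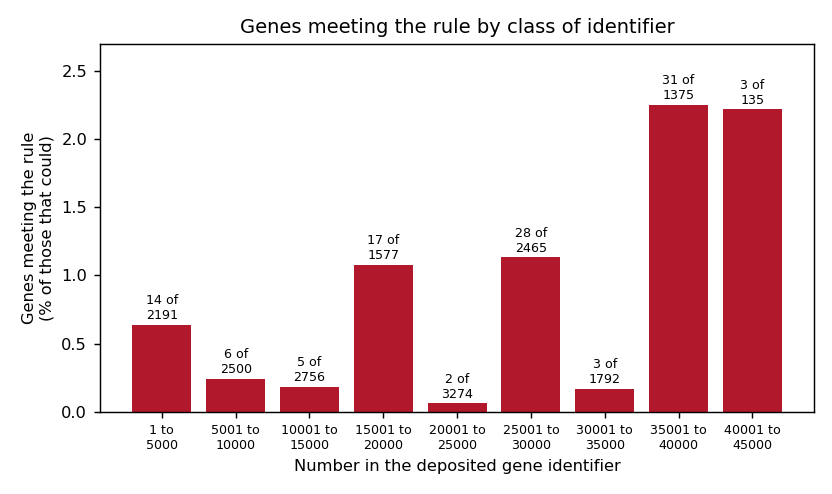
Genes meeting the rule as a percentage of those that could (vertical), by class of the number in the deposited identifier (horizontal), with both counts above each bar. The share is 2.25% between 35001 and 40000 and 0.0611% between 20001 and 25000.

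Some of the genes had another of the 109 close by. For 16 genes another was within 5 identifiers, and 4 were at a distance of 1. How many of any other set of 109 genes would lie as close was not counted. The tenth, 36th and 20th genes lay within 4 and 2 identifiers of each other, and all 3 were at or near 0 in mutant replicates 1 and 5 and highest in replicate 6. The 58th gene and the gene of 5685 bases outside the rule, which had the same low libraries, were 1 identifier apart. Of 211 table rows directly before or after one of the 109 and not among them, 104 were tested. In mutants 24 of these were lower (23.1%) and 12 were higher (11.5%) at an adjusted p under 0.05 by edgeR, where 5.3% and 6.38% of all genes tested were. The median log2 change of these neighbours was -0.08. No source used here gives the strand setting or the handling of reads from overlapping genes, and their part in the changes of neighbouring rows was not tested.

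The mirrored rule, with the genotypes exchanged, gave 34 genes, against the 109. How many genes could have met it was not counted, so no share can be set beside the 0.603%. Over all genes tested, 6.38% were higher and 5.3% lower in mutants at an adjusted p under 0.05 by edgeR. These 34 had a median length of 1730.5 bases. Their wild-type libraries, the low group there, had a median range of 5.93 times.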

How the data were processed

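Gene expression was measured by paired-end RNA sequencing of total RNA from whole embryos. The authors deposited 1 table of raw counts for 10 libraries, with the length of each gene. Alignment used the Subread package, per the file headers, which name it in each count column. The submitters' processing notes list cutadapt, DESeq2, GRCz11 and danRer11 without saying what each was used for, and no source used here gives the counter, strand setting or annotation. Each column was assigned to its sample through the labels' library names, and groups came from the sample titles.

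The genes, the limits and the patterns were chosen with earlier results of these data known. CPM are counts per 1000000 counts of the library. The whole table was fitted in R 4.3.3 with edgeR 4.0.16 (filterByExpr, TMM, glmQLFit and glmQLFTest, robust), after a trial on simulated data. Standard errors of log2 changes are the change over the square root of the F statistic. The 2 genes printed by identifier are those with the highest wild-type CPM and the largest ratio of wild-type to mutant mean, with genes without a mutant count set to 3 counts over the mutant libraries. The rule for other genes took the 10 highest in each of these, the longest, the shortest and those nearest the limit. Genes described for a pattern among libraries were chosen after their values were seen. Alternatives were DESeq2 1.42.0, limma-voom (limma 3.58.1), RLE or total-count scaling, no low-count filter, thinning to 31247787 counts, other limits of the rule, replicates 1 to 4 alone, with or without a replicate block, and each library left out.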

Additional observations from a re-analysis of the deposited data

Results flagged for a closer look

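In 58 sets of library values, from 27 of the genes and 2 summaries of them, the highest or lowest library was set against the rest of its group, and 6 sets had a library far from the others. Chance gives about 1 in 20, or 2.9, where values are normally distributed and sets are chosen without regard to them. Some of the 27 genes were taken for a pattern among the mutant libraries, and some sets held few counts. The 6 sets therefore cannot be judged against that number. All 6 were high values among the mutant libraries. LL0000024918 was at 1.31 CPM in mutant replicate 6, where the other mutant libraries were at 0.566 to 0.759 CPM. The tenth gene in wild-type CPM (4399 bases), one of those near 0 in mutant replicates 1 and 5, was at 5.60 CPM in mutant replicate 6 and at 0.0635 to 2.12 CPM in the others. LL0000015507 was at 0.0960 CPM in mutant replicate 6, which was 3 counts, against 0 to 0.0262 CPM. The 40th gene (637 bases) was at 1.05 CPM in mutant replicate 2, against 0 to 0.0239 CPM, and the 105th (6001 bases) was at 0.576 CPM in mutant replicate 2, against 0. The 68th (2142 bases) was at 0.0955 CPM in mutant replicate 1, which was 4 counts, against 0.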

How the results depend on the processing

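The number of genes meeting the rule was 115 with TMM-scaled CPM, 112 with RLE factors, 113 after thinning all libraries to the lowest total (103 of them among the 109), 105 with medians and 139 with a limit of 33.3% of wild type. By construction it was 52 with a limit of 12.5%, 58 with a wild-type minimum of 2 CPM and 21 with one of 5 CPM. Without 1 library it was 108 to 127, with 100 to 108 of the 109 kept. The number called lower was 94 to 106 of the 109 under all alternatives, where 916 to 1897 of all genes tested were. By edgeR it was 95 to 106 without 1 library, where 916 to 1274 of all genes tested (24433 to 24962) were. It was 102 by limma-voom, where 1345 of 24608 genes were called lower, and 97 by DESeq2, where 1897 of 28694 were. DESeq2 gave an adjusted p for 108 of the 109. The median log2 change of -2.84 was -3.25 by limma-voom, and the cause was not tested. Without 1 library it was -3.14 to -2.78, the lowest without mutant replicate 6. The 3 near-silent genes became 5 with replicates 1 to 4, and 3 to 9 without 1 library. They were 7 without mutant replicate 1 and 9 without mutant replicate 2. With fewer mutant libraries a sum of at most 3 counts is easier to meet. Without wild-type replicate 1 or 4 they were also 7, with all mutant libraries kept and 116 or 127 genes meeting the rule. Both genes printed by identifier stayed lower and called in 18 alternatives each. They were picked from genes chosen by the same contrast, so this describes them and supports nothing. Their log2 changes were -6.15 to -5.83 for LL0000024918 and -8.96 to -7.22 for LL0000015507 without 1 library. Replicate numbers do not mark a known pairing. The correlations between same-numbered libraries of their deviations from the group means were 0.08, 0.07, -0.05 and -0.02. The best-correlated wild-type library was the same-numbered one for mutant replicates 1 and 2, and another for replicates 3 and 4. Whether the libraries are paired was not tested. With the replicate block 94 of the 109 were called and the median log2 change was -3.05, against 103 and -2.98 for the same libraries with no block. Of all 24787 genes tested there, 1352 were called lower with the block and 1571 with no block. The order of mutant levels gave 14 genes with replicates 1 and 5 at up to 25% of replicate 6, and 17 if the mutant mean could be 0.05 CPM, with 8 of the 109 in both; these limits were added after seeing the data.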

Other observations

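Genes with at least 90% of their mutant signal in 1 library, and at least 10 mutant counts, numbered 6 for mutant replicate 2, 1 for replicate 4 and 0 for each of the other mutant libraries, out of 28645 genes with that many counts. Of the 6, 2 were among the genes at least 4-fold lower in mutants, the 40th and the 105th in wild-type CPM.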
